A study of Mus musculus with 9 samples.

Results

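The table of genes that differed between old and young kidney held 389 genes, and all of them are accounted for here from the values of 3 old mice of 20 months and 3 young mice of 2 months, out of 9 mice in the series. All were male ICR mice, an outbred stock, and the kidney was given as the tissue of every sample. The remaining 3 mice were also 20 months old and had received 3-hydroxybutyrate as its sodium salt (3HB) at 1 g/L in the drinking water from 11 months of age. Immunoglobulin genes, chosen by a gene name beginning with Igk, Igh or Igl, numbered 70 and are reported apart from the other 319. The methods of the study name muscle where they describe the RNA, while Keg1, a gene named for its expression in kidney, was at 704 or above in all 9 mice. Most markers of either tissue could not be checked, since a gene that was not called is not in the table.

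The table held only genes that had been called as different between these same young and old mice, by a rule and a threshold that are not given in the sources used here. For this reason the differences below are a description, and no p is given for them. An exact permutation test, two-sided, could not have gone below 0.1 for groups of 3. Values are the deposited normalized values, whose unit is not named, and their read depth is unknown. Differences are the mean of log2(value + 1) in old mice minus that in young mice, with the standard error that follows from the SD of each group, and on this scale the change of genes with low values is understated. The labels give no batch, so age cannot be told apart from any difference in handling or sequencing that went with it. The paper states that the young and the aged mice were bought separately, at different ages. A difference in genetic background between these purchases of an outbred stock cannot be told apart from age either. In bulk kidney RNA, more cells of a type cannot be told apart from more RNA per cell.

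The kidney filters blood in glomeruli and recovers most of the filtrate in the proximal tubule, whose cells are rich in mitochondria and in enzymes for fatty acids, amino acids, steroids and foreign compounds. Ageing kidneys are known for scattered tubular injury, for collections of lymphocytes in the tissue and for low-grade inflammation. Plasma cells secrete antibody made of heavy and light chains. Antibody of the IgA class is joined into dimers by the J chain, bound by the polymeric immunoglobulin receptor on the inner face of an epithelium and released on the other side.

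Of the 389 genes, 271 were higher in old mice (69.7%) and 118 were lower. In 360 of them (92.5%) no old mouse overlapped any young mouse. Outside the immunoglobulins, 201 of 319 genes were higher (63.0%) and 118 lower, and 290 (90.9%) did not overlap. These shares describe the table, since the genes had been chosen for this difference, and the counts for gene groups below are to be read against them. The median size of the difference outside the immunoglobulins was 1.20 on the log2 scale, with 206 genes at 1 or more. This median was 1.87 when 0.1 in place of 1 was added to each value. The median was 1.29 among the genes that were higher and -1.06 among those that were lower. The smallest difference was that of Itfg2, named because it lies at the edge of the table, with 7.44, 7.35 and 11.4 in young and 6.11, 8.54 and 9.32 in old mice. Its groups overlapped, and its difference was -0.11 (standard error 0.25). Outside the immunoglobulins, every young mouse was listed at 0 in 14 genes and every old mouse in 11.

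**Figure D1:**
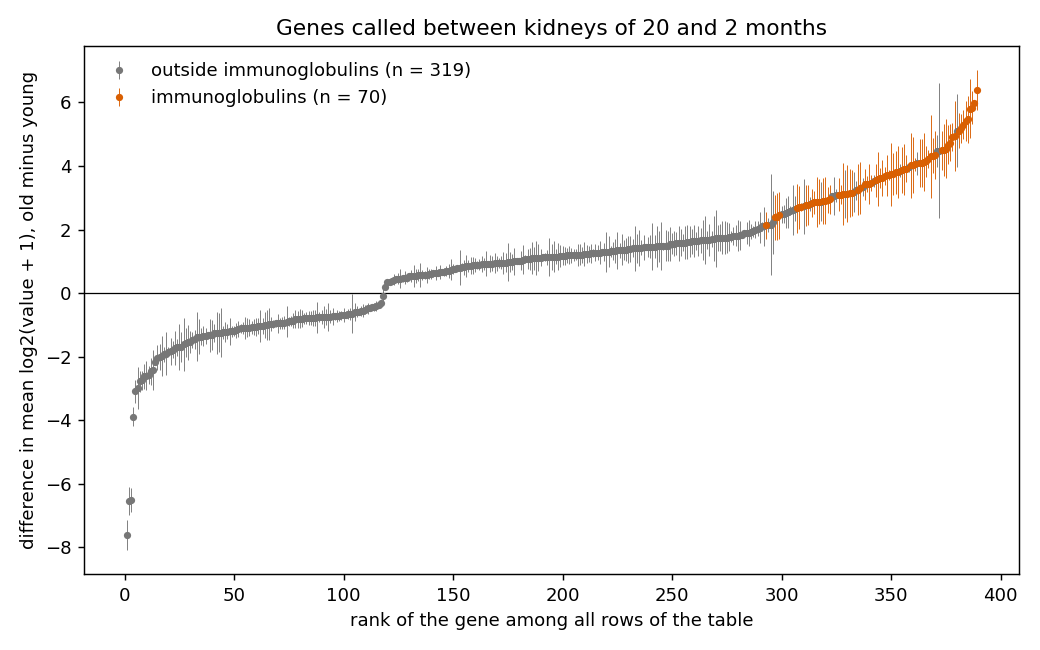
Difference between old and young mice for each of the 389 genes, on the log2(value + 1) scale, ranked along the horizontal axis. Bars are 1 standard error (n = 3 mice per group). The 70 immunoglobulin genes, in orange, lie between 2.14 and 6.40, and the 118 genes that were lower, on the left, hold no immunoglobulin gene.

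Immunoglobulin genes were higher in old kidneys. All 70 were higher in old mice without overlap, with a median difference of 3.71 and a range from 2.14 for Ighm to 6.40 for Igkv6-13. The median was 5.80 when 0.1 in place of 1 was added to each value. They comprised 38 kappa variable genes with a median of 4.02, 23 heavy variable genes with a median of 3.25, 1 lambda variable gene and 8 constant region genes with a median of 3.50. In 16 of the 70, every young mouse was listed at 0. The number of immunoglobulin genes above 0 was 48, 18 and 29 in the young mice and 70 in each old mouse. The 70 in old mice follow from the lack of overlap in every gene, and immunoglobulin genes that were not called are not counted. Summed over the 70 genes, the value was 328, 62.3 and 114 in the young mice and 6432, 6132 and 2023 in the old mice. The lowest old mouse lay above the highest young mouse, as the lack of overlap in every gene requires. Among the old mice, mouse 3 was lowest in 54 of the 70 genes, and among the young mice, mouse 1 was highest in 39. The 3 mice given 3HB summed to 5198, 5416 and 7093.

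Among the antibody constant regions, those of the kappa light chain and the alpha heavy chain had the highest values. Igkc, the constant region of the kappa light chain (chromosome 6, 70726435 to 70726966 on GRCm38), was at 197, 37.0 and 58.1 in young mice and 2648, 2743 and 771 in old mice. It was the most abundant immunoglobulin gene in every mouse, and its difference was 4.54 (standard error 0.93). Igha, which encodes the heavy chain of IgA (chromosome 12, 113254830 to 113260236 on GRCm38), was at 72.0, 9.14 and 20.5 in young and 1277, 1241 and 288 in old mice, a difference of 4.94 (standard error 1.09). Igha made up 94.0, 82.7 and 89.7% of the summed values of the 5 heavy constant region genes in the table in the young mice and 95.5, 97.2 and 76.8% in the old mice. Igha thus had the highest value of the 5 heavy constant region genes in the table in every mouse of either age, by values that are per length if the unit is TPM or FPKM. Heavy constant region genes that were not called, such as Ighg3, do not enter these shares.

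The IgG genes were near 0 in the young mice and measurable in all old mice. Ighg2b was at 0.69, 0 and 0.25 in young and 28.9, 18.4 and 22.5 in old mice, a difference of 4.22 (standard error 0.28). Ighg1 was at 0.48, 0 and 0.13 and then 3.41, 5.44 and 36.9, so that old mouse 3 stood above the other 2 old mice. Ighg2c was at 0.17, 0 and 0.06 in young and 6.74, 4.27 and 12.5 in old mice. Old mouse 3, which had the lowest Igha of the old mice, had the highest share of IgG genes in the summed heavy constant region values, 19.2% against 2.92% and 2.20% in old mice 1 and 2. In the young mice this share was 1.75, 0 and 1.93%. Ighm, the heavy chain of IgM, was at 3.28, 1.91 and 1.92 in young and 21.1, 7.86 and 14.9 in old mice and showed the smallest difference of the 70, 2.14 (standard error 0.43). The lambda constant regions Iglc1 and Iglc2 together made up 1.43, 1.91 and 1.83% of the light constant region values in young mice and 1.29, 2.57 and 1.54% in old mice. The ranges of this lambda share overlapped between the ages, while the levels did not. Iglc2 was at 2.85, 0.72 and 0.79 in young and 21.5, 28.8 and 6.32 in old mice, and Iglc1 at 0, 0 and 0.29 and 13.1, 43.6 and 5.76.

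The variable genes with the highest old means were Igkv10-96, Igkv6-13 and Igkv4-61. Igkv6-13 was at 0.97, 0 and 0.54 in young and 181, 176 and 55.6 in old mice, a difference of 6.40 (standard error 0.62). Igkv4-61 was at 1.96, 0 and 0 in young and 175, 101 and 27.9 in old mice. Old mouse 3 was the lowest old mouse in both. Single variable genes are uncertain, because 37 of the 70 immunoglobulin genes (52.9%) had another gene with a transcript of at least 95% identity over at least 80% of its length. The same held for 41 of the 309 other genes with a transcript in the annotation (13.3%) and for 14.2% of all 48631 genes.

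Genes of B and plasma cells outside the immunoglobulins were higher too. Of 19 listed genes, 6 were in the table, and all 6 were higher in old mice without overlap. Jchain, the J chain of IgA and IgM, was at 12.3, 0.83 and 4.89 in young and 302, 317 and 60.4 in old mice, a difference of 5.11 (standard error 1.14), the highest without overlap outside the immunoglobulins. Mzb1, a chaperone of antibody assembly, was at 0, 0.36 and 1.83 in young and 8.0, 11.2 and 6.02 in old mice. Cd79a, the signalling chain of the B cell receptor, was at 0.21, 0.2 and 0.13 in young and 3.68, 3.55 and 0.7 in old mice. As for the antibody sum, old mouse 3 was the lowest old mouse in all 6 genes. Tnfrsf17, the plasma cell survival receptor BCMA, was listed at 0 in all young mice and was at 1.13, 0.88 and 0.72 in old mice. Pou2af1, a coactivator of antibody genes, was at 0.19, 0.13 and 0.05 and 1.64, 1.1 and 0.62, and Irf4, a factor needed for plasma cells, at 0.07, 0.04 and 0.07 and 0.47, 0.31 and 0.25, so both stayed low. Of 20 T and NK cell genes only Cd8a, a coreceptor of cytotoxic T cells, was in the table. It was at 4.22, 0.47 and 5.37 in young and 0.8, 0.51 and 0.33 in old mice, and the groups overlapped.

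On the epithelial side of antibody transport, Pigr and Ccl28 were also higher. Pigr, the polymeric immunoglobulin receptor (chromosome 1, 130826684 to 130852249 on GRCm38), was at 23.8, 21.4 and 52.7 in young and 180.3, 221 and 549 in old mice, a difference of 3.18 (standard error 0.63). Ccl28, an epithelial chemokine that draws IgA plasma cells, was at 17.0, 10.4 and 29.3 in young and 49.9, 64.6 and 71.8 in old mice, a difference of 1.76 (standard error 0.43). In both genes old mouse 3 was the highest old mouse, whereas it was the lowest for Igkc, Igha and Jchain. The mice given 3HB were at 138, 293 and 133 for Pigr, at 97.7, 71.7 and 78.8 for Ccl28 and at 201, 203 and 218 for Jchain.

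**Figure D2:**
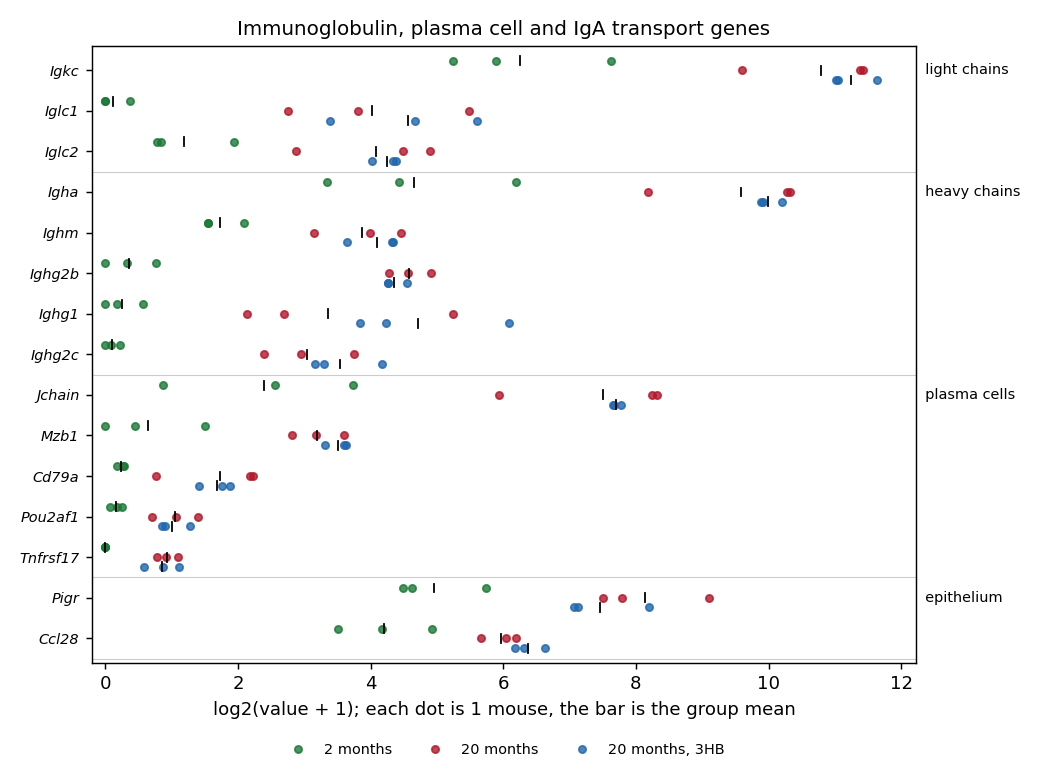
Genes of antibody light and heavy chains, plasma cells and epithelial IgA transport, as log2(value + 1) in each of the 9 mice (dots) with the mean of each group (bars, n = 3). In each of the 15 genes the 3 old mice (red) lie above the 3 young mice (green), and for Igkc, Igha and Jchain 1 old mouse lies below the other old mice.

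Genes for antigen presentation by MHC class II were higher in old kidneys. Class II molecules carry peptides from the outside of the cell to CD4 T cells, and their assembly needs the invariant chain and the DM peptide exchanger. Of 11 listed genes, 6 were in the table, and all were higher without overlap, with a median difference of 1.60. Cd74, the invariant chain, was at 151, 148 and 73.9 in young and 449, 224 and 481 in old mice, a difference of 1.62 (standard error 0.49). H2-Ab1, the class II beta chain, was at 66.7, 40.7 and 30.9 in young and 179.9, 95.7 and 222 in old mice, a difference of 1.81 (standard error 0.48). H2-DMa was at 7.83, 6.49 and 5.25 in young and 20.9, 12.9 and 35.4 in old mice. Old mouse 2 was the lowest and old mouse 3 the highest of the old mice in all 6 genes. Ciita, the transcriptional master regulator of class II genes, was low at 0.42, 0.26 and 0.48 in young and 1.35, 0.63 and 1.76 in old mice. H2-DMb1 was at 6.31, 7.93 and 5.19 in young and 15.6, 10.55 and 39.8 in old mice, a difference of 1.43 (standard error 0.56). H2-DMb2 had a difference of 1.71 (standard error 0.70). Without old mouse 3 the median of the 6 genes was 1.15. The mice given 3HB were at 167, 198 and 189 for Cd74 and 85.6, 81.1 and 91.3 for H2-Ab1.

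Among the MHC class I genes, whose products show peptides from inside the cell to CD8 T cells or serve as nonclassical ligands, 9 of 27 listed genes were in the table, 7 higher and 2 lower in old mice. The H2-Q genes were all higher. H2-Q4 was at 11.8, 13.0 and 13.6 in young and 29.9, 19.6 and 29.2 in old mice, a difference of 0.96 (standard error 0.20). H2-Q7 was at 2.97, 2.0 and 4.22 in young and 13.8, 8.26 and 6.35 in old mice. H2-Q6 was at 4.77, 1.02 and 6.32 in young and 26.9, 18.0 and 4.77 in old mice, and old mouse 3 lay within the range of the young mice. The 5 H2-Q genes, which lie side by side on chromosome 17 between positions 35342242 and 35474563 (GRCm38), were thus alike in direction. Tap2, a subunit of the pump that loads class I molecules, was at 9.26, 7.52 and 9.29 in young and 18.1, 13.4 and 24.5 in old mice, a difference of 0.99 (standard error 0.25).

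In the H2-T region on the same chromosome, between positions 36029773 and 36121465, 2 genes were lower and 3 higher. H2-T22, a nonclassical class I gene, was at 50.9, 55.2 and 47.4 in young and 10.3, 10.02 and 11.1 in old mice, a difference of -2.18 (standard error 0.07). H2-T23, which encodes the ligand Qa-1 of NK cell receptors, was at 66.6, 73.4 and 58.3 in young and 26.0, 27.6 and 43.6 in old mice. H2-T10, a close relative of H2-T22, was at 1.01, 1.3 and 0.45 in young and 26.5, 28.1 and 24.1 in old mice, a difference of 3.85 (standard error 0.21). The mice of each age lay close together for H2-T22 and H2-T10, and the 2 genes differed in opposite directions. The neighbouring pseudogene H2-T-ps was at 2.25, 0.67 and 1.89 in young and 23.2, 22.6 and 21.9 in old mice. BC023719, annotated as an antisense gene, was listed at 0 in all young mice and was at 7.39, 8.31 and 6.44 in old mice. The 3 mice given 3HB were at 12.1, 11.6 and 11.4 for H2-T22 and 23.9, 21.1 and 23.3 for H2-T10. Reads of related H2 genes can be shared between them, and antisense reads can only be told apart where strand was kept, which is not stated.

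Interferon-inducible genes were higher in old mice, mostly in old mice 1 and 3. Interferons are cytokines of the defence against viruses and other intracellular pathogens, and many genes they induce carry an interferon-stimulated response element (ISRE) near their start. Of 40 listed genes, 13 were in the table, all 13 were higher, and 10 of them did not overlap between the ages, with a median difference of 1.29. Promoter stretches of 5 of these genes are shown because they hold such an element close to the start, with letters matching the ISRE core GAAANNGAAA, on either strand, in capitals. Each gives the 100 bases before the transcription start in the direction of the gene, from RefSeq on GRCm38, and the stretch of Igtp lies at chr11:58199456-58199555, that of Irgm2 at chr11:58214877-58214976, Tgtp2 at chr11:49064213-49064312 on the reverse strand, Gbp2 at chr3:142620563-142620662 and Gbp3 at chr3:142559944-142560043.
Igtp: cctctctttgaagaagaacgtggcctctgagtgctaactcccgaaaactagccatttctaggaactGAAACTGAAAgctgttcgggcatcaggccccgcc
Irgm2: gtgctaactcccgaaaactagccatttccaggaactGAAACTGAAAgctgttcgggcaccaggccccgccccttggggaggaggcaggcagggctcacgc
Tgtp2: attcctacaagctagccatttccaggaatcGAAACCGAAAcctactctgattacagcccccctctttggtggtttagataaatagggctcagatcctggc
Gbp2: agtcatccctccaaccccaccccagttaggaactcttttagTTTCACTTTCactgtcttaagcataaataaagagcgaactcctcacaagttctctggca
Gbp3: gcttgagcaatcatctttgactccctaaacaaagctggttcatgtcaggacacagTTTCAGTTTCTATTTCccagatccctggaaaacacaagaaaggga

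In Igtp, Irgm2 and Tgtp2, all GTPases of the immunity-related family, the ISRE match began 34, 64 and 70 bases before the start. The ISRE match of Gbp2 and both overlapping ones of Gbp3 were on the opposite strand. Over the 250 bases before the start, 7 of the 9 interferon-inducible genes of the table with a promoter in the RefSeq set had an ISRE match (77.8%). This compares with 936 of all 27025 genes (3.46%) and 17 of 211 genes outside the immunoglobulins in the age table (8.06%), these 7 among them. The share of the list describes the genes chosen for it and not these mice. An ISRE match was also found in 2 of the 8 MHC class I genes with a promoter, H2-T22 and H2-T23, both of which were lower in old mice. These 2 are also among the 17. Of the 3 MHC class II genes with a promoter, 0 had a match. These are matches of letters, and no binding was measured.

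Igtp was at 5.32, 3.64 and 3.45 in young and 16.5, 4.38 and 25.1 in old mice, a difference of 1.41 (standard error 0.70). Old mouse 2 lay within the young range for this gene. Irgm2 was at 3.44, 2.16 and 2.66 in young and 6.75, 3.51 and 13.5 in old mice, and Tgtp2 at 1.43, 0.58 and 0.97 and 6.36, 2.52 and 5.03. Gbp2, a guanylate-binding protein that attacks vacuoles of intracellular pathogens, was at 1.83, 0.89 and 1.1 in young and 7.68, 2.09 and 5.38 in old mice. Ubd, a ubiquitin-like modifier induced by inflammatory cytokines, was at 0.29, 0.84 and 0.24 in young and 12.3, 2.02 and 15.6 in old mice, a difference of 2.61 (standard error 0.79), the largest of the 13. Ifi47, another GTPase, was at 1.55, 0.66 and 0.86 in young and 7.75, 1.92 and 6.59 in old mice. Old mouse 2 was the lowest of the old mice in all 13 genes. Cxcl10, a chemokine for activated T cells, was at 3.61, 0.57 and 1.39 in young and 5.22, 2.85 and 6.15 in old mice, and the groups overlapped. The mice given 3HB were at 7.11, 4.73 and 5.05 for Igtp, 2.37, 1.66 and 1.79 for Gbp2 and 1.29, 1.71 and 2.31 for Ubd. Tgtp2 and Tgtp1 share 99.8% of their transcript, and Gbp10 and Gm43302 share 99.2%, so their values are uncertain one by one.

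Complement, chemokine and macrophage genes showed a similar direction. Of 23 listed complement genes, 3 were in the table, all higher without overlap. C3, the central complement protein, was at 2.79, 2.36 and 1.42 in young and 29.5, 9.36 and 38.0 in old mice, a difference of 2.88 (standard error 0.62). C4b, upstream of C3 in the classical pathway, was at 8.47, 11.1 and 8.86 in young and 52.3, 20.5 and 29.9 in old mice, with the close copy C4a at 96.0% identity. Cfi, a protease that degrades active C3 and C4 fragments, was at 0.49, 0.33 and 2.07 in young and 3.89, 2.62 and 6.3 in old mice. Old mouse 2 was the lowest of the old mice in these 3 genes. Masp2, a protease of the lectin pathway of complement that was not on the list and is named after its values were seen, was at 0.93, 0.59 and 1.5 in young and 2.63, 5.47 and 4.65 in old mice. There old mouse 2 was the highest of the old mice.

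Of 47 listed chemokine and macrophage genes, 7 were in the table, and all were higher without overlap, with a median difference of 1.36 (2.17 with a pseudocount of 0.1). Ccl2, which draws monocytes, was at 0.27, 0 and 0.29 in young and 13.8, 3.35 and 13.8 in old mice, a difference of 3.06 (standard error 0.60). Its neighbour Ccl7 was listed at 0 in all young mice and was at 1.6, 0.5 and 2.65 in old mice. Lyz2, the lysozyme of macrophages, was at 7.54, 8.12 and 8.69 in young and 72.0, 22.9 and 29.9 in old mice, a difference of 2.05 (standard error 0.49). Cxcl16, a chemokine on the membrane of macrophages and tubular cells, was at 13.8, 16.9 and 6.37 in young and 38.3, 20.4 and 38.2 in old mice. Mmp12, the macrophage elastase, was at 0.74, 0.26 and 0.74 in young and 3.63, 1.99 and 2.89 in old mice. Of 6 defining macrophage markers (Lyz2, Adgre1, Cd68, Csf1r, Itgam and C1qa) only Lyz2 was in the table. Absence from the table says only that a gene was not called. Across 39 listed genes of MHC, peptide loading, interferon, complement, chemokines and macrophages, 37 were higher, old mouse 2 was the lowest of the old mice in 31, and old mouse 3 was the highest in 21 and old mouse 1 in 17. Over all 201 higher genes outside the immunoglobulins, these 37 included, old mouse 2 was the lowest in 94. Old mouse 3 was the highest in 100 of the 201 and old mouse 1 in 62, so this order was partly that of the whole table. For the antibody genes it was old mouse 3 that was lowest, in 54 of 70.

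**Figure D3:**
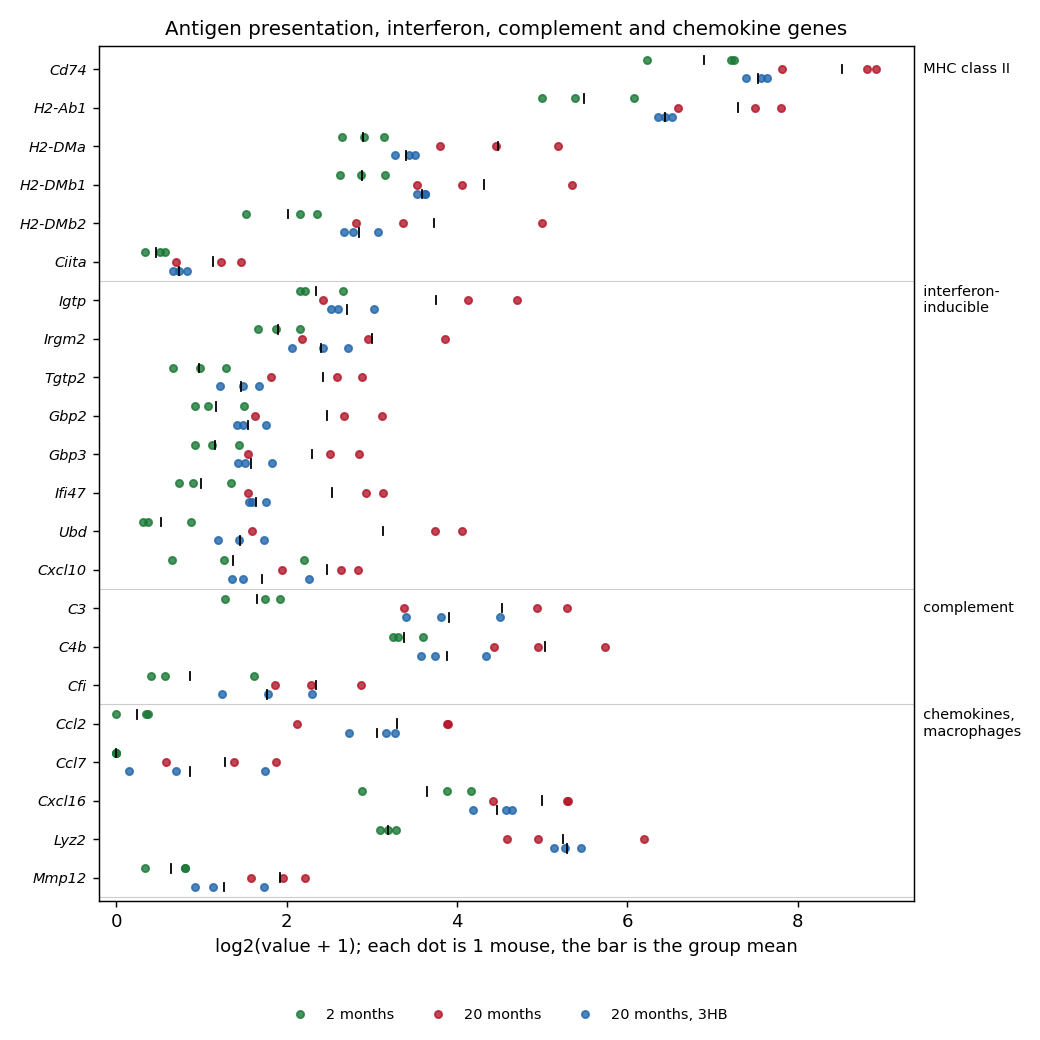
Genes of antigen presentation, interferon response, complement and chemokines, as log2(value + 1) in each of the 9 mice with the mean of each group (bars, n = 3). For all 6 MHC class II genes the 3 old mice (red) lie above the 3 young mice (green), and 1 old mouse overlaps the young mice for Igtp and for Cxcl10.

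Of 25 listed genes that mark injured tubules, 9 were in the table, 7 higher and 2 lower, and the others were not called. These shares are read beside the 63.0% higher and 90.9% without overlap of all genes outside the immunoglobulins, and all 9 were without overlap. Havcr1, which encodes the injury marker KIM-1 of the proximal tubule, was at 0.93, 1.96 and 5.3 in young and 10.3, 8.26 and 11.8 in old mice, a difference of 1.74 (standard error 0.52). Vcam1, an adhesion molecule found on tubular cells after failed repair, was at 1.45, 0.9 and 1.23 in young and 14.4, 7.58 and 12.8 in old mice, a difference of 2.48 (standard error 0.28). Slpi, a secreted inhibitor of leukocyte proteases, was at 0.48, 0.21 and 0 in young and 5.24, 11.5 and 4.81 in old mice. The 3 fibrinogen chains Fga, Fgb and Fgg, neighbours on chromosome 3, were all higher. Fgg was at 1.1, 0.84 and 2.1 in young and 20.2, 3.99 and 31.8 in old mice, and Fga at 3.99, 5.33 and 6.99 and 16.7, 10.2 and 34.0. Old mouse 3 was the highest and old mouse 2 the lowest of the old mice for both. Cd44, a receptor for hyaluronan, was at 0.17, 0.34 and 0.23 in young and 2.49, 0.94 and 1.93 in old mice.

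The keratins on the same list were lower. Krt7, a keratin of simple epithelia, was at 66.4, 49.4 and 49.2 in young and 25.6, 25.4 and 23.4 in old mice, a difference of -1.11 (standard error 0.15). Krt18 was at 23.3, 15.4 and 21.2 in young and 6.83, 7.5 and 9.36 in old mice, a difference of -1.23 (standard error 0.21). Both are also expressed in uninjured collecting ducts and urothelium. Cdkn1a, which encodes the growth arrest protein p21, was at 2.79, 1.87 and 4.21 in young and 9.43, 10.2 and 12.0 in old mice. Its difference was 1.58 (standard error 0.27), and the mice given 3HB were at 12.1, 12.7 and 16.4, further from the young mice. Gmnn, the replication licensing inhibitor geminin, was at 3.29, 1.8 and 7.11 in young and 9.85, 15.4 and 19.4 in old mice. Gadd45a, a gene induced by DNA damage, was at 33.9, 24.1 and 35.5 in young and 60.8, 68.6 and 86.8 in old mice. None of these 3 overlapped between the ages.

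Some of the most abundant genes of the table were lower in old mice. Klk1, the tissue kallikrein made in the distal nephron, was at 2764, 2366 and 2242 in young and 1161, 1590.5 and 1289 in old mice, a difference of -0.87 (standard error 0.16). Keg1 was at 1076, 1290.3 and 1637 in young and 962, 704 and 793 in old mice, a difference of -0.69 (standard error 0.22). Hsd11b2, which inactivates glucocorticoid in aldosterone target cells, was at 128, 161 and 128 in young and 67.1, 96.2 and 88.4 in old mice. In all 3 the young and old mice were separate, though each difference was below 1. The mice given 3HB were at 1672, 1811 and 1833 for Klk1 and 1297, 1008 and 858 for Keg1. Cyp27b1, the enzyme that activates vitamin D, was higher, at 2.23, 0.99 and 1.87 in young and 6.67, 7.31 and 9.05 in old mice, a difference of 1.71 (standard error 0.24).

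Of 34 genes for oxidative phosphorylation and mitochondria, 4 were in the table, 3 lower and 1 higher. Slc25a10, the mitochondrial dicarboxylate carrier, was at 290.3, 390.3 and 275 in young and 143, 127 and 143 in old mice, a difference of -1.19 (standard error 0.17). Slc25a25, a carrier of ATP-Mg and phosphate, was at 75.8, 62.5 and 65.0 in young and 17.0, 29.9 and 34.0 in old mice. Atp5e, the epsilon subunit of ATP synthase, was at 2514, 2077 and 1439 in young and 148, 154 and 99.98 in old mice, and the mice given 3HB were at 107, 86.3 and 112. Cox8b, a subunit of cytochrome oxidase used in muscle and brown fat, was at 1.83, 1.79 and 2.14 in young and 24.3, 0.53 and 56.1 in old mice. Its higher mean came from old mice 1 and 3 alone, since old mouse 2 lay below every young mouse.

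Of 61 listed genes for fatty acids, lipoproteins and lysolipids, 3 were in the table. Ehhadh, which works in the breakdown of fatty acids in peroxisomes, was lower by a difference of -0.76 (standard error 0.15). Enpp2, which makes lysophosphatidic acid, was at 46.7, 75.9 and 89.0 in young and 22.8, 22.8 and 46.7 in old mice, and old mouse 3 touched the young range. Apoe, an apolipoprotein of tissue lipid transport, was at 186, 139.9 and 160.3 in young and 373, 260.5 and 1396 in old mice, a difference of 1.67 (standard error 0.74), with old mouse 3 far above the others. Lipid genes that the list did not hold, named after their values were seen, also differed in both directions. Mogat2, an acyltransferase of triglyceride synthesis, was at 27.7, 42.0 and 12.0 in young and 6.07, 3.03 and 8.19 in old mice, and Gdpd3, a lysophospholipase D, had a difference of -1.56 (standard error 0.45). Apoh, a phospholipid-binding plasma glycoprotein, was at 11.7, 6.61 and 11.2 in young and 43.4, 37.9 and 37.3 in old mice. Gpat3, an acyltransferase of glycerolipid synthesis, had a difference of 1.34 (standard error 0.58) with overlap. Acsl6, a fatty acyl-CoA synthetase, was at 0.23, 0 and 0.06 in young and 0.48, 0.32 and 1.23 in old mice. Its difference was 0.58 (standard error 0.25), with old mouse 3 above the other old mice.

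Enzymes of amino acids and of conjugation differed in both directions. Ftcd, which passes carbon from histidine to folate, was at 46.0, 39.0 and 38.0 in young and 9.03, 13.8 and 8.06 in old mice, a difference of -1.92 (standard error 0.23). Hpd, the second step of tyrosine breakdown, was at 194, 122 and 91.7 in young and 269.8, 393 and 692 in old mice, a difference of 1.68 (standard error 0.50). Bhmt, which returns homocysteine to methionine, was at 1.5, 0.29 and 0.31 in young and 3.51, 2.04 and 4.66 in old mice. Glutathione transferases were also divided. Gstt1 was at 46.4, 45.1 and 105 in young and 197, 229 and 264 in old mice, a difference of 1.90 (standard error 0.41), and Gstm2 at 71.1, 55.9 and 63.8 and 30.4, 35.7 and 30.8, a difference of -0.95 (standard error 0.12). Sult1c2, a sulfotransferase, was at 70.1, 18.8 and 64.3 in young and 179, 117 and 138 in old mice. Sult1a1, another one, was at 32.5, 9.91 and 20.6 in young and 7.44, 8.65 and 11.6 in old mice, with overlap.

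Of the retinoid list, 4 of 22 genes were in the table, 3 higher and 1 lower. Aldh1a1, which makes retinoic acid from retinal, was at 4.6, 1.94 and 4.38 in young and 9.11, 10.9 and 21.7 in old mice, a difference of 1.65 (standard error 0.47). Its neighbour on chromosome 19, Aldh1a7, was at 6.47, 1.22 and 3.52 in young and 0.16, 0.92 and 0.37 in old mice, a difference of -1.54 (standard error 0.55). Aldh1a2 was at 0.54, 0.35 and 0.85 in young and 3.84, 2.67 and 1.87 in old mice. The adjacent pair thus differed in opposite directions without overlap in either gene.

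**Figure D4:**
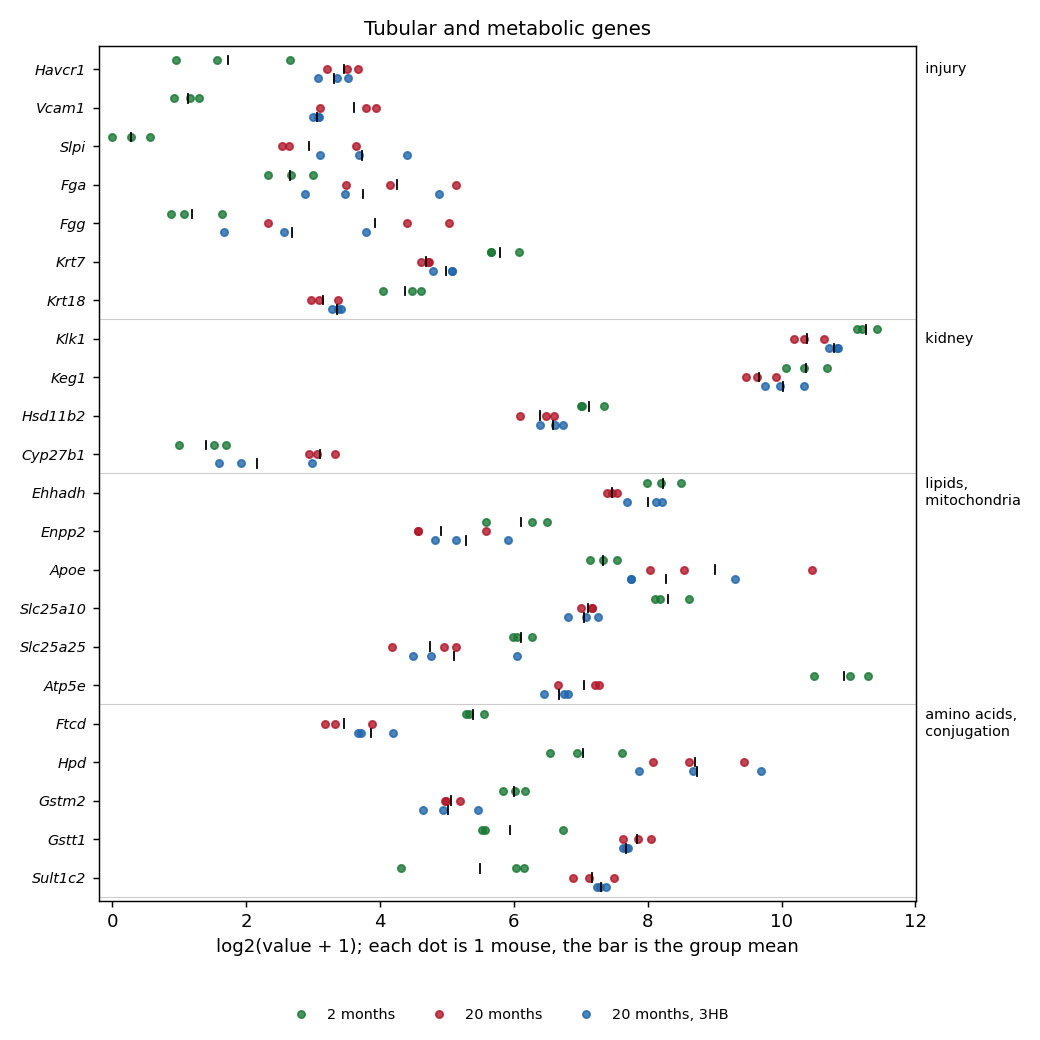
Tubular injury markers, kidney genes and metabolic genes, as log2(value + 1) in each of the 9 mice with the mean of each group (bars, n = 3). The old mice (red) lie to the right of the young mice (green) for the markers Havcr1, Vcam1, Slpi, Fga and Fgg and to the left for Krt7, Krt18, Klk1, Keg1, Hsd11b2 and Atp5e.

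Several of the genes that differed most had near-identical copies. Among the 10 with the largest negative difference 5 had such a copy, and among the 10 with the largest positive one outside the immunoglobulins, 2 did, counting genes that did not overlap between the ages and whose higher group mean was 1 or more. The Hsd3b genes encode steroid dehydrogenases, and 4 of them lie together on chromosome 3 between positions 98499071 and 98724543. Hsd3b4 was at 127, 53.2 and 109 in young mice and listed at 0 in all 3 old mice and all 3 mice given 3HB. Hsd3b8 was at 299, 272 and 489 in young and 38.4, 47.7 and 93.7 in old mice, a difference of -2.59 (standard error 0.46). The 2 genes have the same longest open reading frame, 1122 bases with 0 differences. Their longest transcripts, of 1610 bases, were identical too, so reads from them cannot be assigned to either gene. The split of values between the 2 genes is therefore uncertain, and only their joint signal can be read as lower in old mice. The first 90 bases of that frame are shown for comparison, from the GENCODE transcripts, with letters that differ from Hsd3b4 in capitals.
Hsd3b4: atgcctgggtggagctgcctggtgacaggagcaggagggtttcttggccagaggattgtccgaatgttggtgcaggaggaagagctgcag
Hsd3b8: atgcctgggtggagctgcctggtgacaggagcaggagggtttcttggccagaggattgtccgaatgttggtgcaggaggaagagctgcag
Hsd3b2: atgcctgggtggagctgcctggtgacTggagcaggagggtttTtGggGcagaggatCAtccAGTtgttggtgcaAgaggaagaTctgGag
Hsd3b5: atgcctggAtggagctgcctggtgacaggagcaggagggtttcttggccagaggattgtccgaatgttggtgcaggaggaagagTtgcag

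Hsd3b2 differed from Hsd3b4 at 217 bases of this frame (80.7% identity) and Hsd3b5 at 54 (95.2%). Both of these were higher in old mice. Hsd3b2 was at 24.1, 86.4 and 59.8 in young and 169.7, 144 and 151 in old mice, a difference of 1.61 (standard error 0.54). Hsd3b5 was at 0, 0.04 and 0 in young and 1.88, 3.11 and 4.58 in old mice, a difference of 2.00 (standard error 0.28). By listed values the cluster held 2 genes that were lower, which cannot be told apart, and 2 that were higher. None of them overlapped between the ages. Of 35 genes on the list of steroid and androgen-linked renal genes, 7 were in the table, 5 of them higher. Hsd3b8 was not on that list, and with it 5 of 8 were higher. Cyp2d12, a cytochrome P450, was at 1.63, 3.39 and 3.35 in young and 47.9, 10.8 and 56.6 in old mice, a difference of 3.12 (standard error 0.77). Cyp4a12b, an androgen-responsive fatty acid hydroxylase with a copy in Cyp4a12a at 98.3% identity, was at 0.81, 1.2 and 1.38 and 3.27, 5.88 and 2.69. Slc7a12, an amino acid transporter of the tubule, was at 0.66, 0.57 and 2.25 in young and 3.47, 1.93 and 13.0 in old mice, with overlap.

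Ahcyl, at chromosome 16, 46152985 to 46155077 on GRCm38, is a single-exon copy of Ahcy, the enzyme that splits S-adenosylhomocysteine, and their reading frames of 1299 bases differ at 4 positions. It was at 141, 375 and 141 in young mice and listed at 0 in all old mice, and the mice given 3HB were at 0.09, 0.26 and 0. The parent gene Ahcy was not in the table. Rps2-ps13, a pseudogene of a ribosomal protein, was at 563, 537 and 367 in young and 6.53, 5.12 and 2.01 in old mice, a difference of -6.54 (standard error 0.45). Rps2-ps10, which shares 99.8% of its transcript and was chosen after its values were seen, was at 664, 726 and 552 and 326, 359 and 303. Gm11249, another copy in the table at 98.2% identity to the Rps2 pseudogene Rps2-ps6 and likewise chosen after its values were seen, was higher, at 3.42, 3.26 and 3.23 in young and 7.98, 8.86 and 11.3 in old mice. The Rps2 copies of the table thus differed in direction, none of them overlapping between the ages. Morf4l1-ps1, also a pseudogene, was at 7.42, 3.84 and 20.7 in young and 0, 0.14 and 0.55 in old mice.

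Copies of the aldose reductase gene Akr1b3 were higher in old mice. Gm6644 was listed at 0 in all young mice and was at 17.3, 12.0 and 14.9 in old mice. Gm12138 was likewise listed at 0 in all young mice and was at 5.03, 8.9 and 2.15 in old mice. Gm6736, named after its values were seen, was also at 0 in all young mice and at 2.71, 2.78 and 2.56 in old mice. These 3 pseudogenes lie on 3 chromosomes (1, 11 and 12), and their transcripts were 99.7, 99.1 and 99.5% identical to the coding transcript of Akr1b3 over their whole length, in that order for Gm6644, Gm12138 and Gm6736. Akr1b3 itself was not in the table. Gm38056, which was at 0.15, 0.3 and 0.14 in young and 10.9, 10.2 and 6.6 in old mice, overlaps Gm6644 on the other strand. Gm8399, a pseudogene of the actin gene Actg1 at 98.6% identity, was listed at 0 in all young mice and was at 13.3, 10.8 and 7.97 in old mice.

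For copies of Rpl17, another ribosomal protein gene, 1 old mouse stood apart. Rpl17-ps5, chosen after its values were seen, was at 0, 1.44 and 1.3 in young and 161, 1.22 and 173 in old mice, so that old mouse 2 lay within the young range. Gm46209, with 98.7% identity to Rpl17, was listed at 0 in all young mice and was at 10.3, 0.21 and 6.48 in old mice. In both, old mouse 2 was at a low value while all 3 mice given 3HB were high, at 127, 147 and 354 and 4.87, 6.55 and 10.6. Outside the immunoglobulins the table held 23 annotated pseudogenes, 15 higher (65.2%) and 8 lower, beside 63.0% higher among all 319 genes.

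**Figure D5:**
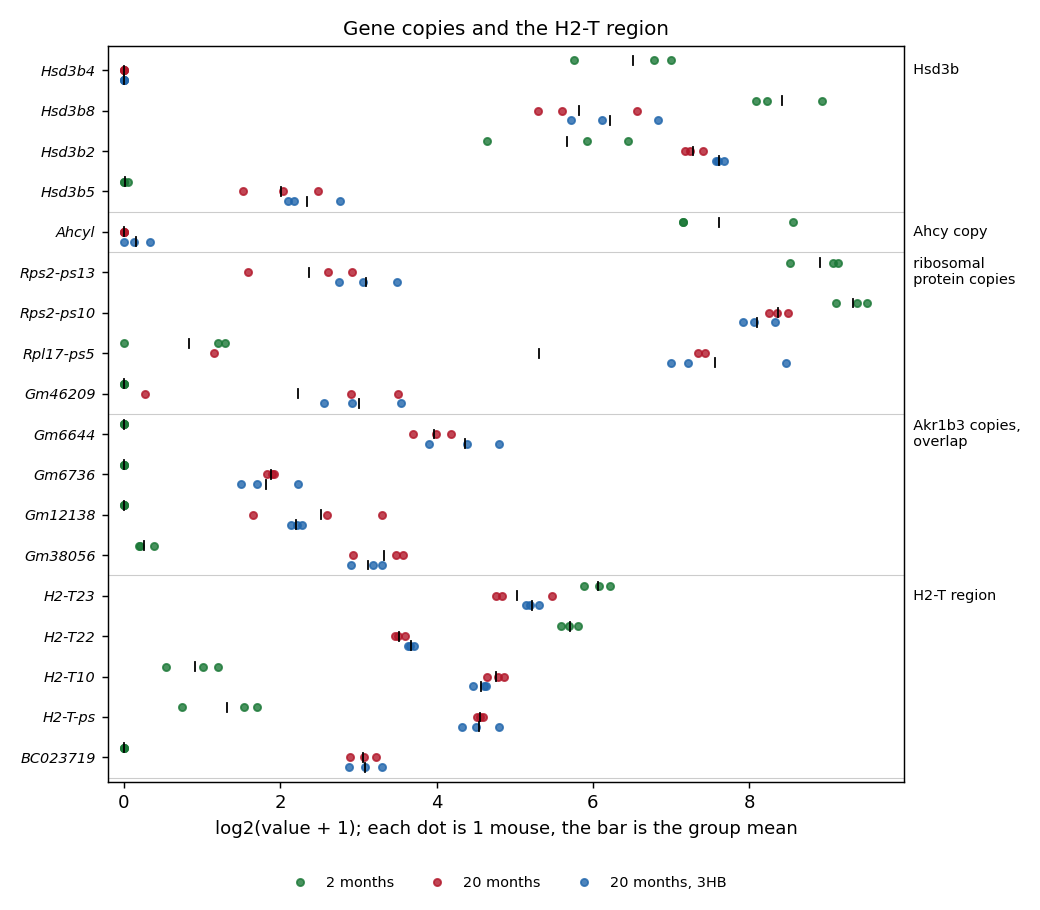
Genes with close copies, and the H2-T region, as log2(value + 1) in each of the 9 mice with the mean of each group (bars, n = 3). Hsd3b4 and Ahcyl are at 0 in every old mouse (red), Gm6644, Gm6736, Gm12138 and BC023719 are at 0 in every young mouse (green), and for Rpl17-ps5 old mouse 2 is at the level of the young mice.

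Other genes with large differences had no copy of this kind by the search used here. Npy, the neuropeptide Y gene, was at 0, 0.15 and 0.9 in young and 23.9, 49.3 and 18.0 in old mice, a difference of 4.47 (standard error 0.50), and the mice given 3HB were at 9.95, 68.8 and 14.8. Mir124-2hg, the host transcript of a microRNA gene, was at 0.05, 0 and 0 in young and 9.97, 13.0 and 6.03 in old mice, and Ncoa4-ps, a pseudogene, at 0, 0 and 0.12 and 12.5, 12.9 and 28.1. All 3 were near 0 in young mice. Tm4sf5, a membrane protein of the tetraspanin-like family, was at 4.75, 7.06 and 12.4 in young mice and listed at 0 in all old mice. Pla2g2c, a secreted phospholipase A2, was at 5.32, 11.8 and 8.01 in young and 0.32, 0.16 and 1.09 in old mice. Gm7879 had a difference of -2.77 and the pseudogene Gm18736 one of -2.74. Serpine2, an inhibitor of proteases in the matrix, was at 11.9, 4.87 and 7.19 in young and 20.7, 30.4 and 14.9 in old mice, the only member of the list of 46 matrix and proteolysis genes in the table. Matrix genes that this list did not hold, named after their values were seen, were found in both directions. Smoc1, a matrix glycoprotein, had a difference of 2.03 (standard error 0.24), and Col5a3, a collagen chain, one of 0.48 (standard error 0.12). Lama3, a laminin chain of basement membranes, had a difference of -0.69 (standard error 0.14). Col27a1, another collagen chain, was at 10.4, 7.22 and 12.2 in young and 2.59, 4.34 and 9.1 in old mice, with overlap, and Ltbp2, a latent TGF-beta binding protein, at 0.17, 0.13 and 0.03 and 1.31, 0.32 and 0.16, also with overlap.

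Some genes of the table were neighbours. Of 309 genes outside the immunoglobulins with a position in the annotation, 132 lay within 500 kb of another, in 51 groups, of which 34 had a single direction and 17 had both. No such count was made over all genes. Since 63.0% of the genes outside the immunoglobulins were higher, many neighbours would share a direction anyway, and these counts only describe the table. The group of H2-DMa, H2-DMb2, H2-DMb1, Tap2, H2-Ab1 and C4b, all higher, lay on chromosome 17 between positions 34119541 and 34743882. On chromosome 2, between positions 177183453 and 177957297, the zinc finger gene Zfp970 and the provisionally named genes Gm14410, Gm14403 and Gm14326 were all higher, a group chosen after its values were seen. On chromosome 13 the histone gene H4c8 was lower while H4c3 and H2bc3 were higher. No list for the circadian clock, the renin-angiotensin system, endothelial cells, erythroid cells, skeletal muscle or adipocytes had a member in the table. Of the 319 genes outside the immunoglobulins, 89 were on one of the 26 lists and 230 were on none.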

How the data were processed

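RNA of 9 mouse kidneys had been sequenced, and the authors deposited, for young against old mice, a table of normalized signal values per gene, limited to the genes they had called. The notes of the submitters name CASAVA, HISAT2, StringTie and GRCm38, without parameters, versions or the unit. StringTie writes FPKM and TPM, both per length, and which was used is not given. Depth and the number of genes tested by the authors are not known, so no interval from counting could be given and precision rests on 3 mice per group. A second deposited table, for 3HB against old, was not used.

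For each gene the group means of log2(value + 1) were subtracted, old minus young, and genes whose groups did not overlap were counted. The calculation was tested on simulated data. No gene was filtered out. The members and the 26 gene lists were chosen with earlier results of these data known. Named genes outside the immunoglobulins are the 10 largest differences in each direction that do not overlap and have a higher group mean of 1 or more, at most 6 of highest mean from each list, genes listed at 0 in all mice of a group and averaging 5 or more in the other, and the 3 of highest mean in each direction. Of the immunoglobulins, the 5 of highest mean in old mice and all constant region genes are named. Other named genes are said to be chosen after their values were seen, or give the sets or neighbours they belong to.

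Positions came from GENCODE M21 (GRCm38) by gene identifier, which held 379 of the 389 genes. The other 10 have newer identifiers, so the authors' annotation was another release. Near copies were searched with BLAST 2.17.0 among the longest transcripts of at least 200 bases, which misses copies of shorter transcripts. Promoters came from RefSeq (GRCm38.p6). Values identical between 2 mice made up at most 1.97% of those above 0, so no library held the values of another. Alternatives changed the pseudocount to 0.1, left out genes of low mean or listed at 0, used medians, used ratios of arithmetic means, set B and plasma cell genes aside and left out each mouse in turn. Python 3.11.15, numpy 2.4.6, pandas 2.3.3 and matplotlib 3.10.9 were used.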

Additional observations from a re-analysis of the deposited data

How the results depend on the processing

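With a pseudocount of 0.1 in place of 1, the median size of the difference outside the immunoglobulins was 1.87 on the log2 scale in place of 1.20, and the median of the immunoglobulins was 5.80 in place of 3.71. Only 11 immunoglobulin genes were above 0 in all 6 young and old mice, and all 11 were higher in old mice. Under the other alternatives and with each mouse left out in turn, the counts by direction stayed within 1.5 times those reported. The medians of the 20 lists with members in the table were run under these alternatives, wherever members were left, except that the setting aside of B and plasma cell genes was run only on the genes outside the immunoglobulins as a whole. No list median that was run turned sign, and 10 lists had a median that moved by more than the SD between the old mice under at least 1 alternative. With the pseudocount of 0.1 the median was 3.16 in place of 1.21 for B and plasma cells, 2.17 in place of 1.36 for chemokines and macrophages, 2.17 in place of 1.59 for tubular injury, 1.87 in place of 1.05 for the retinoid genes, -1.94 in place of -1.25 for T and NK cells, where Cd8a was the 1 gene in the table, 2.17 in place of 1.71 for vitamin D and mineral handling, again 1 gene, and -1.20 in place of -0.67 for the 2 nephron markers. The median of B and plasma cells was 2.02 when a mean of at least 1 was required in the higher group. The median of T and NK cells ranged from -1.91 without young mouse 2 to -0.85 without young mouse 3. Without young mouse 3 the median of the nephron markers was -0.28, and with medians of the mice it was -0.37. The median of the 4 glutathione and conjugation genes was 0.36, and it was 0.02 without young mouse 2, 0.55 without young mouse 1 and 0.03 with medians of the mice. The lists of steroid and androgen-linked genes and of cell cycle and growth arrest genes moved only when a young mouse was left out, to between 1.09 and 1.73 from 1.48 and to 1.97 from 1.66. The sign of 1 gene, Itfg2, turned when a mouse was left out. Unknown depth limits values near 0, and the differences of genes listed at 0 in a group depend on the pseudocount. No paired analysis was possible because the young and old groups are different mice that share only a replicate number, and the values come from no test.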
